A study of Mus musculus with 36 samples.

Results

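Embryos carrying the label Ctrl were compared with embryos carrying the label NI at the 8-cell stage of mouse development, across all genes of the deposited expected-count table. The 12 libraries (6 Ctrl and 6 NI) were chosen by their stage and treatment labels, from 36 libraries in the series. The series concerns the retrotransposon LINE-1 after fertilisation and chromatin accessibility, and it also holds 7 VP64 libraries of the 8-cell stage and 17 libraries of the 2-cell stage (7 Ctrl, 6 KRAB and 4 NI). Each library was made with the SMART-seq v4 kit from a pool of 4 to 5 embryos, so a value is a mean over embryos. NI is not explained by the labels, which also do not name the material given to Ctrl embryos. The text on injection is the same for every group, and strain, sex and maternal age were not found in the labels. Nothing says that pools came from separate litters or days, so the p-values measure the spread between pools, which may be technical. In pooled RNA, fewer cells of a kind and less RNA per cell cannot be told apart.

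At the 8-cell stage the mouse embryo runs on its own transcripts. The maternal store has largely been cleared, the genes of the 2-cell burst of genome activation have been turned down, and ribosome and mitochondrial genes are strongly used. The cells then compact, gain an apical side, and begin to divide between trophectoderm (the future placenta lineage) and inner cell mass, a choice in which the Hippo pathway and the transcription factors Tead4 and Cdx2 take part. LINE-1 elements are transcribed in the early embryo. Comparing Ctrl with NI asks how far embryos that carry neither the VP64 nor the KRAB label differ from each other.

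No gene passed the test. Of 9850 genes tested, 0 had an adjusted p under 0.05 (0% called, edgeR's quasi-likelihood test with Benjamini-Hochberg adjustment), and the smallest adjusted p was 0.999991. Without adjustment, 429 genes (4.36% of those tested) had a p under 0.05, fewer than the 492.5 that an even spread of p-values would give. Of these, 315 were higher in Ctrl (3.2%) and 114 were lower (1.16%). The median log2 fold change, Ctrl minus NI, was -0.03, and 47.2% of genes had a positive value. DESeq2 on the same libraries called 1 gene, Afp, at an adjusted p of 0.00349, and had 565 genes at an unadjusted p under 0.05.

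The test could not see small differences. The biological coefficient of variation between pools was 0.609, and the median half-width of the 95% confidence interval of a log2 fold change was 1.05, or 0.92 for the 6521 genes with at least 10 CPM in a group. CPM is a count divided by the depth of its library, with edgeR's TMM factors. For 7943 genes (80.6%) the interval lay wholly inside a 4-fold change in either direction, and for 1853 genes (18.8%) it lay inside a 2-fold change. Among genes with at least 10 CPM those shares were 89.9% and 27.4%. The estimates themselves were small: 69.5% of genes had a log2 fold change under 0.5 in size and 91.2% were under 1, while 863 genes exceeded 1 without passing.

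**Figure D1:**
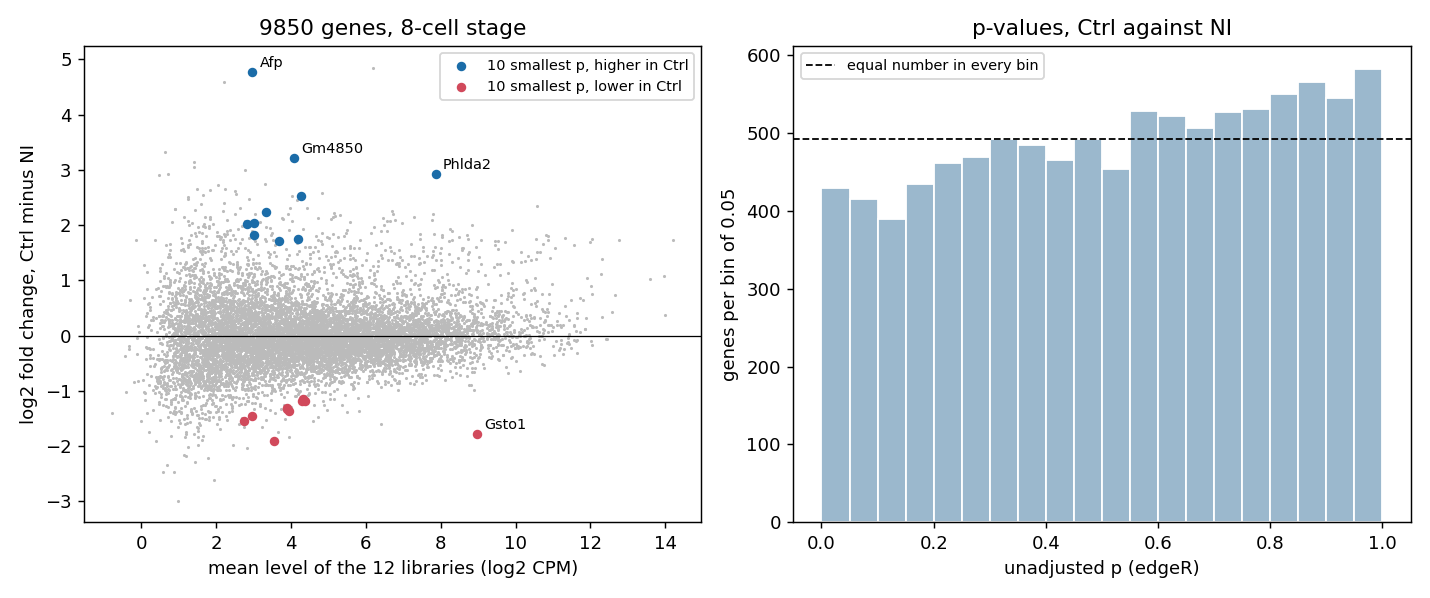
Left, log2 fold change (Ctrl minus NI) of 9850 genes against their mean level in the 12 libraries (log2 CPM), with the 10 smallest p-values in each direction coloured. Right, genes per p-value bin of 0.05 width (edgeR, unadjusted), with a dashed line at 492.5 genes, the height an even spread would give; the first bin holds 429.

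The 12 libraries held between 1103574 counts (NI replicate 2) and 13583527 counts (NI replicate 4). Mean totals were 4361280 ± 1985270 in Ctrl and 5654550 ± 4311040 in NI (SD, n = 6 each; exact permutation p = 0.602, two-sided). At a common depth of 1103574 counts, 10600 ± 1085 genes were detected in Ctrl and 11281 ± 574 in NI (SD, n = 6 each; exact permutation p = 0.216, two-sided). The 100 most counted genes took 35.0 ± 7.71% of counts in Ctrl and 29.7 ± 3.56% in NI (SD, n = 6 each; exact permutation p = 0.158, two-sided). Adjusted over these 3 measures the p-values were 0.602, 0.325 and 0.325, and the smallest that relabelling 12 libraries can give is 0.00216. The median Spearman correlation of library pairs was 0.860 within Ctrl, 0.863 within NI and 0.870 between Ctrl and NI, and the highest of all, 0.969, joined a Ctrl and an NI library.

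Ctrl replicate 6 stood apart from the rest. Its median Spearman correlation with the other 18 libraries of the stage was 0.746, against 0.822 to 0.918 for the others. Its 100 most counted genes took 49.3% of counts, and 8753 genes were detected at the common depth, the lowest number of the 19. Over the genes tested at the 8-cell stage, its median correlation to the 17 libraries of the 2-cell stage was 0.501. The other 8-cell libraries had 0.501 to 0.588. Its correlations with libraries of both stages were low, and whether Ctrl replicate 6 was nearer to the 2-cell stage was not tested. On the first principal component (34.1% of variance) it had the highest score, followed by VP64 replicate 7, NI replicate 5 and NI replicate 6, so libraries of all 3 groups lay on that side. A pair of transcripts took large shares of its counts. Map1lc3b, an autophagosome protein, took 6.05% of them, against 0.54 to 1.88% in the other Ctrl and NI libraries, and Dppa3, a maternal factor that protects DNA methylation, took 3.79%, against 0.631 to 1.59%.

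**Figure D2:**
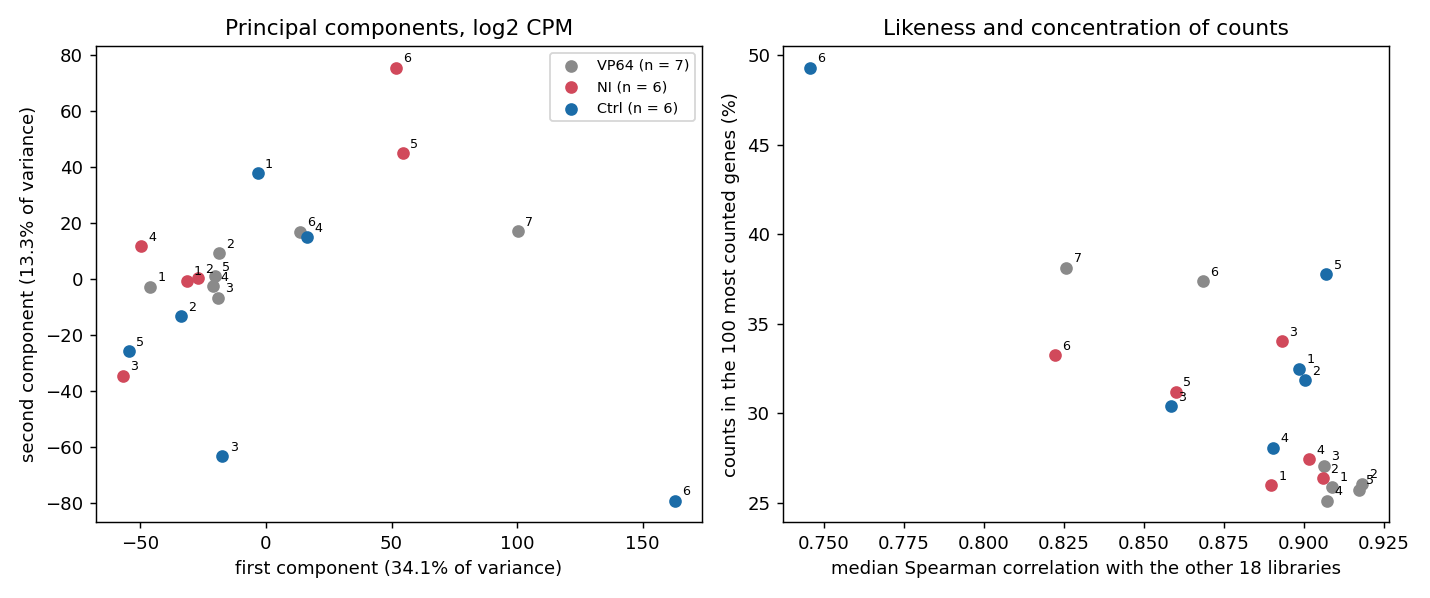
Left, scores of the 19 libraries of the 8-cell stage on the first and second principal components of log2 CPM; right, percent of counts in the 100 most counted genes against the median Spearman correlation with the other 18 libraries. Numbers are replicates, and Ctrl replicate 6 lies alone at 49.3% and 0.746.

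The labelled tissue was checked against its markers. Pou5f1, Nanog, Klf17, Cdh1, Dppa5a, Tfap2c and Krt18, genes of the pre-implantation embryo, had counts in all 12 libraries. Of the cumulus and granulosa markers, Hsd3b1, Has2 and Ptx3 had 0 counts in all 12, Cyp11a1 had 2 counts and Inhba 1 count in total, and Star had 22 counts in Ctrl and 23 in NI. Of the 35 genes of this list 4 passed the filter, and the 2 most abundant of them were counted in all 12 libraries: Gja1, a gap junction protein that embryos also make, at 106 to 1204 CPM in Ctrl and 353 to 858 CPM in NI, and Amhr2, the receptor of anti-Müllerian hormone, at 5.59 to 91.9 CPM in Ctrl and 41.3 to 79.3 CPM in NI. The sperm gene Tnp1 and the blood genes Hbb-bs and Ptprc were at 0, Prm1 had 1 count in each group, and Prm2 had 18 in Ctrl and 3 in NI. Odf2 of the sperm list and Hba-a2 and Pecam1 of the blood, immune and oviduct list were counted in all 12, each at 80.0 CPM or less in every library, with overlapping ranges in Ctrl and NI. The part of these markers in the results was not tested. Egg genes were still counted, with Zp3, a zona pellucida protein, at 21.9 to 110 CPM in Ctrl and 21.1 to 88.5 CPM in NI. The median of Zp3 was 45.6 CPM in Ctrl and 30.8 CPM in NI. The other egg markers were lower and had lower medians in Ctrl than in NI: Oosp1 (0.890 and 2.89 CPM), Gdf9 (4.64 and 5.67 CPM) and Bmp15 (0.747 and 2.80 CPM). Of the 2-cell markers, Zscan4c and Zscan4d were under the filter on low counts, whereas Tcstv3 (1.49 to 9.13 CPM in Ctrl and 0.177 to 28.4 CPM in NI) and Eif1a (113 to 452 CPM in Ctrl and 97.9 to 454 CPM in NI) were counted in all 12.

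The genes described next are the 10 with the smallest p-values in each direction among those with at least 10 CPM in a group; none of them passed. They comprised genes highest in Ctrl replicate 6, a set of Eif1a-like genes with low medians in NI, genes highest in NI replicates 5 and 6, and BC037704 and Arhgap32, which belonged to none of these. Before adjustment, Ctrl replicate 6 held the highest value of the 12 libraries for 245 of the 315 genes higher in Ctrl (77.8%), where it held it for 20.9% of all genes tested. The next, Ctrl replicate 3, was highest for 46 of the 315 (14.6%). Among the 114 genes lower in Ctrl, NI replicate 6 held the highest value for 59 (51.8%), against 15.3% of all genes tested. Ctrl replicate 6 held the lowest for 56 (49.1%), against 27.8% of all genes tested. Choosing genes by direction raises such shares by itself. None of the 315 was highest in an NI library, and none of the 114 in a Ctrl library. The shares over all genes tested are therefore not a like background. Without Ctrl replicate 6, 203 genes had an unadjusted p under 0.05 (111 higher and 92 lower), and 0 were called.

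The 250 bases before the RefSeq start of 3 of these genes are shown (build GRCm38.p6) because they are the gene with the smallest p, a gene with the same library pattern, and a gene with at least 10 CPM whose groups did not overlap. Capitals mark matches, on either strand, to the TATA box word TATAAA, to the GC box word GGGCGG (the site of Sp1-type factors) and to the word of the CCAAT box; none of the matches overlapped. Afp lies at chr5:90490464-90490713 on the plus strand, Phlda2 at chr7:143502525-143502774 on the minus strand, and Nup62cl at chrX:140062569-140062818 on the minus strand.
Afp: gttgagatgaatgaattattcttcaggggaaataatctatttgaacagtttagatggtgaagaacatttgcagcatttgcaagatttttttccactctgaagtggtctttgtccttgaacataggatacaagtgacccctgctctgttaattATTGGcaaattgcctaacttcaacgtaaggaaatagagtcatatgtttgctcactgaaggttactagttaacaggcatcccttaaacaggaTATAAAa
Phlda2: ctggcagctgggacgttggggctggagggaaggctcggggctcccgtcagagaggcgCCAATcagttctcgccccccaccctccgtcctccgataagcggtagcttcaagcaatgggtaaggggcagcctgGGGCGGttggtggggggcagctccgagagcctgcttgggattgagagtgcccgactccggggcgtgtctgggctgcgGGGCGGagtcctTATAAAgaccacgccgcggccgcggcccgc
Nup62cl: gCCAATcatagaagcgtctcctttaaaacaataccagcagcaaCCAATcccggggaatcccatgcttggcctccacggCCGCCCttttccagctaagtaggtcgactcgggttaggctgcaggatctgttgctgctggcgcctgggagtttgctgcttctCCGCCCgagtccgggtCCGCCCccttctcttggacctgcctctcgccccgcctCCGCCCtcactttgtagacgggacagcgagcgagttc
The Afp window held 1 CpG, the Phlda2 window 21 and the Nup62cl window 17, where the median over 32851 RefSeq promoters was 6. The TATA box word was found in the Afp and Phlda2 windows and in 12.4% of all promoter windows. The GC box word was in the Phlda2 and Nup62cl windows and in 32.7% of all, and the CCAAT box word was in all 3 windows and in 33.8% of all. A match describes the letters and is not evidence of binding.

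Afp, alpha-fetoprotein, a secreted serum protein of yolk sac endoderm and fetal liver, had the smallest p. Its level in Ctrl was 0 CPM at the lowest, 2.22 at the median and 78.8 at the highest, and in NI it was 0, 0.555 and 1.11 CPM. The value of 78.8 CPM came from Ctrl replicate 6, the next highest was 6.54 CPM in Ctrl replicate 3, and the groups overlapped. The log2 fold change was 4.77 ± 1.09 (SE), with an unadjusted p of 2.01e-04 and an adjusted p of 0.999991 by edgeR. Without Ctrl replicate 6 it was 2.26, and without Ctrl replicates 3 and 6 it was 1.53. DESeq2 gave 4.91 ± 0.96 (SE). VP64 libraries lay at 1.63 to 4.71 CPM.

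Phlda2, an imprinted gene that limits placental growth, showed the same library. Ctrl ranged from 23.0 CPM through a median of 74.8 to 2053 CPM, and NI from 24.4 through 47.8 to 102 CPM. Ctrl replicate 6 held the 2053 CPM and the other 5 Ctrl libraries were at or under 212 CPM, overlapping NI. Its log2 fold change of 2.92 ± 0.87 (SE) became 0.61 without Ctrl replicate 6 and -0.10 without Ctrl replicates 3 and 6.

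Gm4850, a processed pseudogene by the GENCODE annotation, had 2.46, 9.86 and 141 CPM in Ctrl (lowest, median, highest) and 0.417, 2.39 and 8.97 CPM in NI. Its log2 fold change of 3.21 ± 0.92 (SE) was 1.38 without Ctrl replicate 6. Plekhb2, a membrane protein of recycling endosomes, ranged from 4.62 to 101 CPM in Ctrl and from 3.96 to 16.6 CPM in NI. Its log2 fold change of 1.75 was 0.72 without that library. Prr5l, a partner of the kinase complex mTORC2, ranged from 3.72 to 45.8 CPM in Ctrl and from 0.731 to 5.65 CPM in NI, and its log2 fold change of 2.05 was 1.06 without that library. For each of these 3 genes Ctrl replicate 6 was the highest of the 12 libraries.

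Nup62cl, an X-linked gene named for its likeness to a nuclear pore protein, was 1 of 2 genes whose 6 Ctrl libraries all lay above the 6 NI libraries (0.0203% of genes tested). Ctrl had 7.99, 12.7 and 60.4 CPM (lowest, median, highest) and NI 4.11, 6.13 and 7.41 CPM. The gap between the groups was narrow, and Ctrl replicate 6 held the 60.4 CPM. The log2 fold change was 1.72 ± 0.55 (SE; unadjusted p = 0.00445 by edgeR), and 0.99 without Ctrl replicate 6. The other gene was Bag2, a co-chaperone of Hsp70, at 1.85 to 9.51 CPM in Ctrl and 0 to 1.59 CPM in NI. VP64 libraries spread over both groups, at 4.87 to 45.6 CPM for Nup62cl and 0 to 6.05 CPM for Bag2.

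The Eif1a-like genes Gm5662, Gm2016 and Gm8300 lie within a cluster on chromosome 12, and such copies are known for their transcription in the 2-cell embryo. Eif1a itself encodes a translation initiation factor. Gm5662 (chr12:88270640-88274500, minus strand) had 1.14, 34.9 and 65.1 CPM in Ctrl (lowest, median, highest) and 1.24, 3.41 and 19.19 CPM in NI. Ctrl replicate 2 was as low as the NI libraries, and 4 of the 6 Ctrl libraries lay above every NI library. This gave a log2 fold change of 2.53 ± 0.68 (SE; unadjusted p = 0.00114 by edgeR), with a range of 2.21 to 3.49 as each Ctrl or NI library was left out.

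Gm2016 (chr12:87874072-87877859, plus strand) had 2.28, 10.3 and 45.0 CPM in Ctrl and 1.39, 2.96 and 7.73 CPM in NI, a log2 fold change of 2.25 ± 0.61 (SE). Gm8300 (chr12:87514316-87518266, plus strand) had 4.62, 9.43 and 20.8 CPM in Ctrl and 0.883, 2.31 and 6.33 CPM in NI, a log2 fold change of 2.03 ± 0.56 (SE). For Gm8300 all 6 Ctrl libraries were above the NI median, though the ranges overlapped. The share of all genes tested with all 6 Ctrl libraries on the same side of the NI median is not given. That pattern, here and in genes below, is therefore only a description. The values without Ctrl replicate 6 were 2.39 for Gm2016 and 1.91 for Gm8300. With each Ctrl or NI library left out, Gm2016 lay between 1.64 (without Ctrl replicate 4) and 2.66 (without NI replicate 6), and Gm8300 between 1.75 (without Ctrl replicate 3) and 2.58 (without NI replicate 4). Gm5662 and Gm2016 share 80.6% and 84.0% of their 31-base transcript words with each other, so reads could be split between them and the pair is not independent evidence.

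Other copies that were tested had smaller estimates. The log2 fold change was 0.97 ± 0.67 for Gm2022, 0.99 ± 0.70 for BB287469 and 0.57 ± 0.88 for Gm5039 (SE). The ranges of Ctrl and NI overlapped in each. As a group VP64 stood with Ctrl or above it, though VP64 replicate 7 had 2.29 CPM of Gm8300, under the lowest Ctrl library. VP64 minus NI gave 2.93 ± 0.68 for Gm5662, 3.09 ± 0.62 for Gm2016 and 2.41 ± 0.56 for Gm8300 (log2, SE), with 0 genes called. Those contrasts share the NI libraries with Ctrl minus NI, and the values are set side by side only.

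BC037704, a gene known by its clone name, had 3.91, 10.4 and 28.2 CPM in Ctrl and 0.745, 3.44 and 6.73 CPM in NI. All 6 Ctrl libraries were above the NI median, and the ranges overlapped. Its log2 fold change of 1.82 ± 0.49 (SE; unadjusted p = 0.00106 by edgeR) ranged from 1.38 without Ctrl replicate 3 to 2.07 without NI replicate 5.

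**Figure D3:**
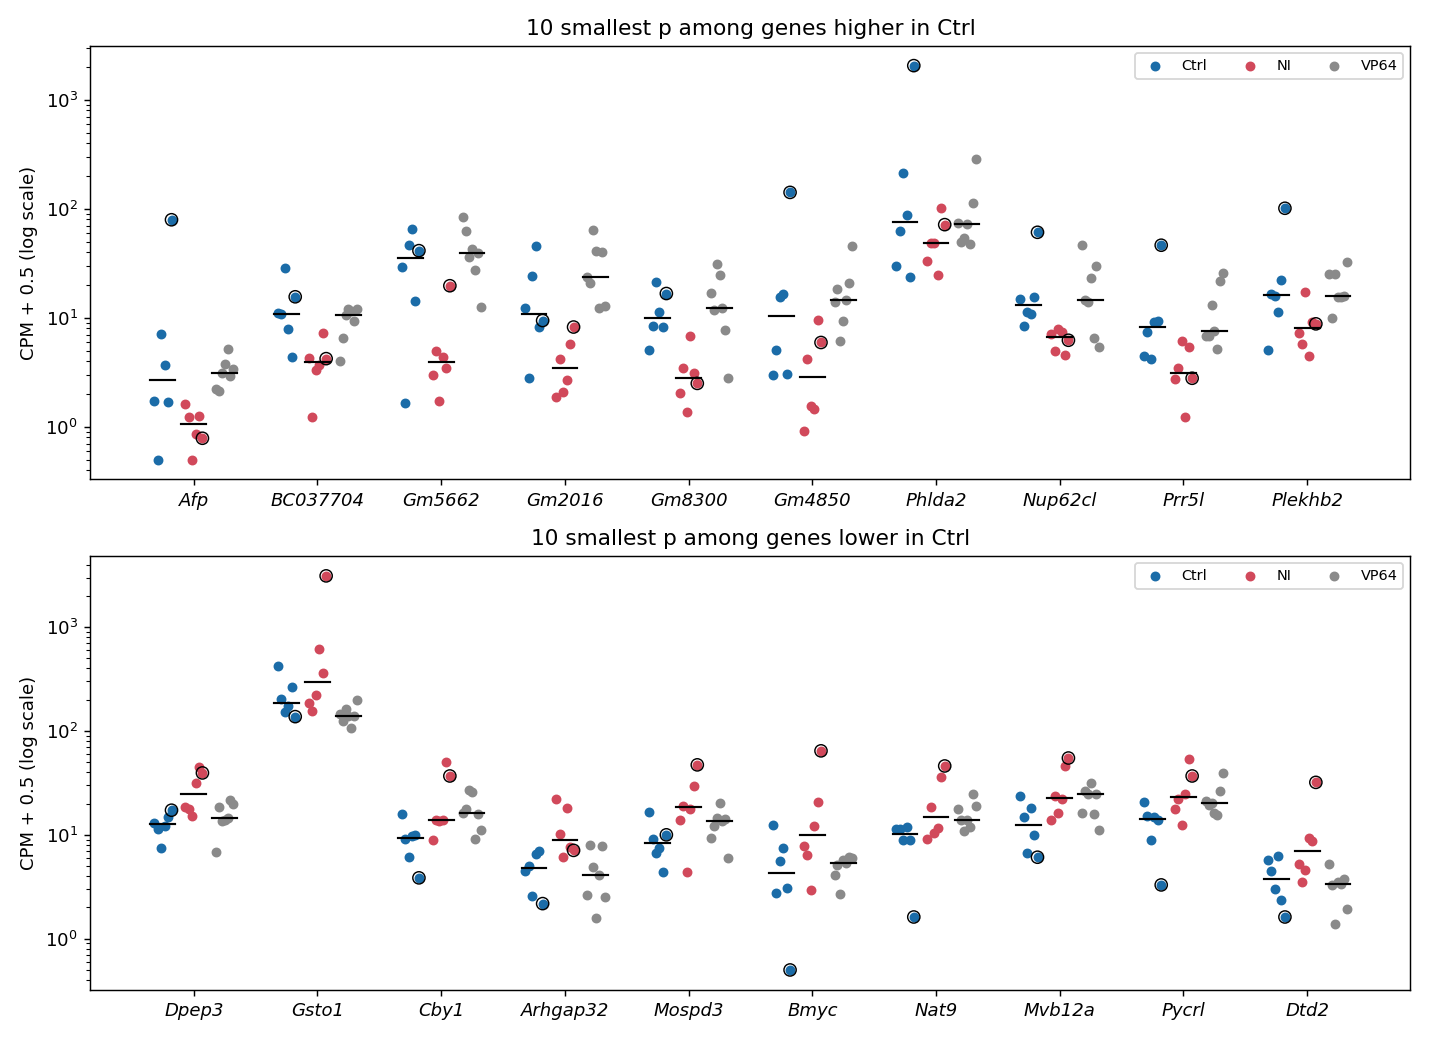
Levels (CPM + 0.5, log scale) in each Ctrl, NI and VP64 library of the 8-cell stage for the genes with the 10 smallest p-values higher in Ctrl (top) and lower in Ctrl (bottom). Bars are medians and circled points are replicate 6 of Ctrl and of NI; Afp, Phlda2 and Gm4850 have 1 Ctrl point far above the rest, and Gsto1 has 1 NI point at 3114 CPM.

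Among the genes lower in Ctrl with a mean of at least 10 CPM in a group, Dpep3, a membrane-bound dipeptidase, had the smallest p. Ctrl had 6.98, 12.2 and 16.8 CPM (lowest, median, highest) and NI 14.8, 24.5 and 44.8 CPM. All 6 Ctrl libraries were under the NI median, and the groups overlapped in a narrow band. The log2 fold change was -1.17 ± 0.37 (SE; unadjusted p = 0.00422 by edgeR), and it lay between -1.32 and -0.98 as each Ctrl or NI library was left out. Arhgap32, a GTPase-activating protein, had 1.68, 4.28 and 6.47 CPM in Ctrl and 5.65, 8.39 and 21.4 CPM in NI, a log2 fold change of -1.45 ± 0.51 (SE), with a highest NI value in replicate 1.

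Gsto1, a glutathione transferase of the omega class (chr19:47854970-47864790), rested on a single NI library. Ctrl had 137, 186 and 422 CPM and NI 156, 293 and 3114 CPM, and NI replicate 6 held the 3114 CPM. Its log2 fold change of -1.79 ± 0.58 (SE) was -0.46 without that library. Bmyc, a relative of Myc, and Dtd2, an enzyme that clears mischarged tRNA, also peaked in NI replicate 6, at 63.9 and 31.5 CPM, against 12 and 5.76 CPM for the highest Ctrl library. Their log2 fold changes of -1.91 and -1.55 were -0.95 and -0.76 without it.

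Cby1, an inhibitor of beta-catenin found at the base of cilia, Mospd3, Nat9, Mvb12a, a subunit of the ESCRT-I sorting complex, and Pycrl, an enzyme of proline synthesis, had log2 fold changes between -1.37 and -1.15. In each of these 5 genes the highest 2 values were those of NI replicates 5 and 6, both on the high side of the first component. Without the 4 libraries that scored highest there (Ctrl replicate 6, NI replicates 5 and 6, VP64 replicate 7), the log2 fold change was -0.36 for Cby1, -0.70 for Mospd3, -0.24 for Nat9, -0.41 for Mvb12a and -0.44 for Pycrl. The part of library quality in these values was not tested.

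The 6 Ctrl libraries lay under all 6 NI libraries in 5 genes (0.0508% of genes tested), all under 10 CPM. Hsf2bp, a meiotic recombination factor that binds heat shock factor 2, had 1.19, 2.35 and 3.42 CPM in Ctrl and 4.86, 5.74 and 7.45 CPM in NI, a log2 fold change of -1.36 ± 0.45 (SE; unadjusted p = 0.00614 by edgeR). The VP64 libraries had 2.07, 7.73 and 15.4 CPM of Hsf2bp. Mvk, mevalonate kinase of sterol synthesis, had 0 to 1.07 CPM in Ctrl and 1.39 to 6.71 CPM in NI. The others were Creb3l4, a membrane-bound transcription factor, Tmem106c and Neurl4, with NI at 1.24 to 2.99, 1.94 to 5.16 and 4.59 to 5.98 CPM. These 5 genes and Bag2 were chosen after their values were seen.

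Gene lists were drawn up for the tissue, the targeted element and the handling of embryos. The 37 lists name 1547 distinct genes, of which 1521 were in the table and 1243 were tested. None was called, and 36 (2.90%) had an unadjusted p under 0.05, 22 higher and 14 lower in Ctrl, where 4.36% of all genes tested did. A 4-fold change lay outside the interval of 86.5% of those members and a 2-fold change outside that of 27.1%. The median log2 fold change of a list was between -0.23 and 0.26, and 36 of 37 medians were within 0.25 of 0, where the median of all genes was -0.03.

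**Figure D4:**
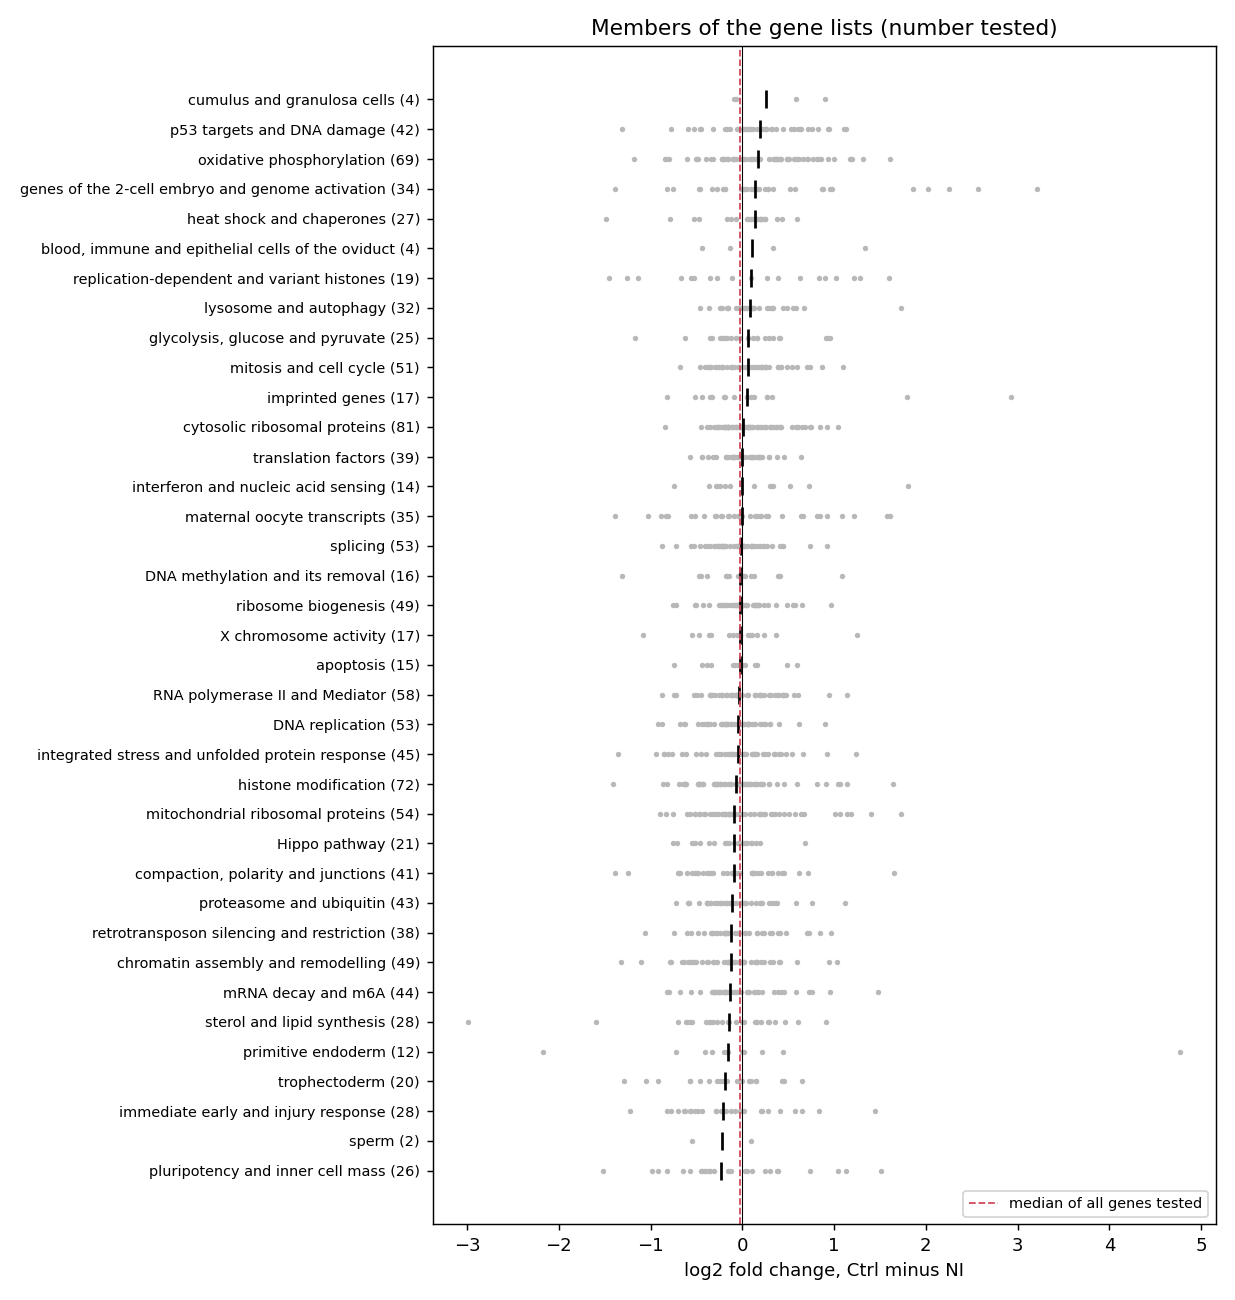
Log2 fold change (Ctrl minus NI) of each tested member of the 37 gene lists (grey points) and the median of each list (black tick), with the number tested in parentheses. The medians lie between -0.23 and 0.26, and the dashed line at -0.03 is the median of all genes tested.

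The lists of the growth machinery had medians near 0. Of 81 cytosolic ribosomal protein genes 43 were positive and 38 negative, with a median log2 fold change of 0.00 and 0 at an unadjusted p under 0.05. Their summed share of counts was 8.38 ± 2.49% in Ctrl and 8.94 ± 3.43% in NI (SD, n = 6 each). Rpl41, a protein of the large subunit, had a log2 fold change of 0.41 (95% interval -0.53 to 1.35). For the 49 tested ribosome biogenesis genes the median was -0.03, and Npm1, a nucleolar chaperone, was at -0.06 (-0.84 to 0.72). For 69 oxidative phosphorylation genes the median was 0.17, with 44 positive. Within that list Sdhc, a subunit of succinate dehydrogenase, was at -1.18 ± 0.49 (SE), the only member at an unadjusted p under 0.05. Sdhc had 66.5 and 93.4 CPM in NI replicates 5 and 6, against 7.79 to 29.1 CPM in the other NI libraries. Its Ctrl range was 7.82 to 37.8 CPM.

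Pluripotency genes had the lowest median, -0.23 over 26 tested members, and trophectoderm genes -0.19 over 20. Pou5f1, the Oct4 factor of pluripotent cells, had 63.7, 312 and 584 CPM in Ctrl and 217, 500 and 1604 CPM in NI, a log2 fold change of -0.98 ± 0.54 (SE). Nanog, its partner in the inner cell mass, had 376, 786 and 3617 CPM in Ctrl and 125, 510 and 1107 CPM in NI, and lay the other way at 1.13 ± 0.60 (SE). Both ranges overlapped between the groups, and the highest Nanog value was that of Ctrl replicate 6. The lowest Pou5f1 value was also that of Ctrl replicate 6. The highest was that of NI replicate 6, where the next NI value was 690 CPM. Tead4, the factor that opens the trophectoderm programme, was at -0.46 ± 0.34, and Cdx2, which acts after it, at -1.29 ± 0.68 (SE), with Ctrl at 2.79 to 19.7 CPM and NI at 1.12 to 61.4 CPM. Gata6, of the primitive endoderm, was at -0.01 ± 0.34 (SE), with an interval of -0.71 to 0.69.

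Compaction and polarity genes had a median of -0.09 over 41 members, with Cgn (cingulin, a tight junction protein) at -1.25 ± 0.50 (SE) and Dsp (desmoplakin) at 1.65 ± 0.78 (SE). Cgn had 2.82, 23.6 and 50.5 CPM in Ctrl and 19.4, 58.6 and 96.2 CPM in NI, with all 6 Ctrl libraries under the NI median. Dsp had 1.23 to 7.27 CPM in Ctrl, highest in replicate 6, and 0 to 3.15 CPM in NI, so the groups overlapped. Hippo pathway genes, 21 tested, had a median of -0.09. They took 0.0636 ± 0.0233% of counts in Ctrl and 0.0885 ± 0.0244% in NI (SD, n = 6 each). The lowest share, 0.0235%, was in Ctrl replicate 6, and the highest NI share was 0.134%. The median share was 0.0627% in Ctrl and 0.0828% in NI.

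The 2-cell and genome activation list had 34 tested members, 5 of them at an unadjusted p under 0.05 and all 5 higher in Ctrl: Gm8300 and Gm4850 above, with Usp17lb, Spz1 and Sp110. Over all genes tested, 4.36% had such a p and 3.2% had one and were higher in Ctrl. Gm8300 and Gm4850 had already been named for their small p, and Gm4850 was at 1.38 without Ctrl replicate 6. Usp17lb, a deubiquitinase of the embryo, had 1.68, 4.89 and 39.8 CPM in Ctrl and 0, 1.55 and 3.36 CPM in NI, the highest in Ctrl replicate 3. Spz1, a testis-type transcription factor, had 1.14 to 8.77 CPM in Ctrl and 0 to 2.01 CPM in NI. Sp110, a nuclear body protein, was abundant, at 423, 1327 and 2225 CPM in Ctrl and 349, 725 and 987 CPM in NI. Over its tested members this list had a median of 0.14, and Obox6, a homeobox gene of this list, was at -0.01 ± 0.42 (SE).

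Maternal transcripts had a median of -0.01 over 35 tested members. Dppa3 had 6983, 11982 and 73758 CPM in Ctrl and 5186, 9082 and 16998 CPM in NI, a log2 fold change of 1.09 ± 0.59 (SE), with the highest value in Ctrl replicate 6. Omt2a and Omt2b, oocyte transcripts of neighbouring genes, had log2 fold changes of 1.58 and 1.61 and reached 281 and 325 CPM in Ctrl replicate 6. The other 5 Ctrl libraries had 6.12 to 35.5 CPM of Omt2a and 5.61 to 40.3 CPM of Omt2b, against 50.8 and 53.8 CPM at most in NI. The list's share of counts was 3.87% in Ctrl replicate 6, and its mean was 1.65 ± 1.11% in Ctrl and 1.11 ± 0.36% in NI (SD, n = 6 each).

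Lists that bear on injection, damage and the targeted element also had medians near 0. Of 42 tested p53 target and DNA damage genes, 31 were positive with a median of 0.19. Cdkn1a, the p21 inhibitor of the cell cycle, had 175, 289 and 583 CPM in Ctrl and 61.1, 166 and 376 CPM in NI, a log2 fold change of 0.62 with an interval of -0.27 to 1.52. All 6 Ctrl libraries were above the NI median of Cdkn1a, but the ranges overlapped. The share of all genes tested with that pattern is not given. The 28 immediate early and injury response genes had a median of -0.21, the 27 heat shock and chaperone genes 0.14 and the 45 stress response genes -0.05. Retrotransposon silencing and restriction genes, 38 tested, had a median of -0.12, with Rnaseh2c, a subunit of RNase H2, at -1.06 ± 0.45 (SE). Interferon and nucleic acid sensing genes, 14 tested, had a median of 0.00, with Mb21d1, the DNA sensor cGAS, at 1.81 ± 0.73 (SE). Mb21d1 had 0.615 to 10.1 CPM in Ctrl, highest in replicate 6, and 0.374 to 3.71 CPM in NI, so the groups overlapped.

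In the lysosome and autophagy list (32 tested, median 0.08), Map1lc3b had 6469, 11540 and 117857 CPM in Ctrl and 4468, 9869 and 12746 CPM in NI. Ctrl replicate 6 held the 117857 CPM, and VP64 replicate 7 held 37679 CPM, the highest of its group. The log2 fold change was 1.73 ± 0.68 (SE; unadjusted p = 0.0175 by edgeR). Ubb, a polyubiquitin gene of the proteasome list, was at 1.12 ± 0.48 (SE), with all 6 Ctrl libraries above the NI median but overlapping ranges. The highest Ctrl value of Ubb, 15896 CPM, was that of replicate 6, and the next was 8402 CPM. Transcripts of LINE-1 itself were not analysed here.

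**Figure D5:**
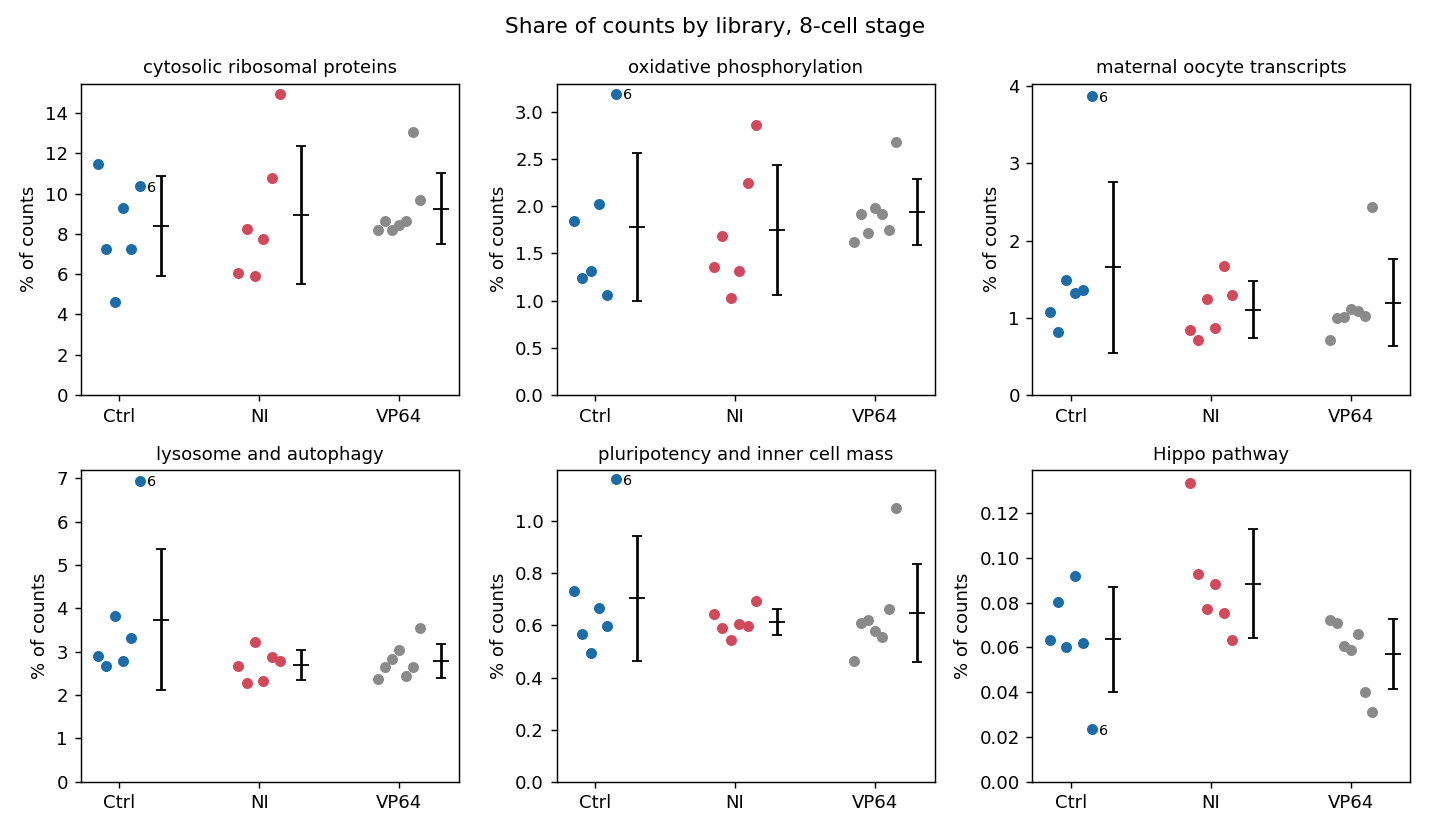
Percent of counts taken by 6 gene lists in each library of the 8-cell stage (points) with the group mean and SD (black); Ctrl n = 6, NI n = 6, VP64 n = 7. Ctrl replicate 6, marked 6, holds 3.87% for maternal oocyte transcripts and 6.94% for lysosome and autophagy genes, the highest of the 19 libraries for both.

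Which group had the larger spread between pools depended on Ctrl replicate 6. With all 12 libraries, the median SD of log2 CPM over genes was 0.995 in Ctrl, 0.823 in NI and 0.667 in VP64, and 62.5% of genes had a larger SD in Ctrl than in NI. Without Ctrl replicate 6 the median SD was 0.711 in Ctrl, and 39.5% of genes had a larger SD in Ctrl than in NI. With any other Ctrl or NI library left out that share was 57.7% to 69.9%; these settings were chosen after seeing the data. No pair of libraries of the stage differed by less than sampling noise: the smallest chi-square per degree of freedom over genes was 6.98.

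Whether the difference between Ctrl and NI changed between stages was tested across all 36 libraries. Of 13158 genes, 0 were called by edgeR's quasi-likelihood test (0% called, smallest adjusted p 0.0522), and DESeq2 called 659. By edgeR, 2680 had an unadjusted p under 0.05, well above the number that an even spread of p-values would give. The 0 called therefore does not show that the difference was the same at both stages. The 5 genes with the smallest p were all higher in Ctrl than in NI at the 2-cell stage. Of these, 9030624J02Rik was expressed at the 8-cell stage, at 49.7 ± 18.5 CPM in Ctrl and 53.03 ± 21.3 CPM in NI (SD, n = 6 each), and at 58.1 ± 45.6 and 4.51 ± 2.81 CPM at the 2-cell stage (SD, n = 7 and 4). Antxr2, an anthrax toxin receptor, Nlrp4g, an oocyte Nlrp gene, 4930562C15Rik and Gm3259 had means under 1 CPM in both groups at the 8-cell stage. For Pold3, a subunit of DNA polymerase delta, the log2 fold change was 2.38 ± 0.46 at the 2-cell stage and 0.07 ± 0.38 at the 8-cell stage (SE), with an adjusted p for the difference of 0.0732.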

How the data were processed

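The authors deposited expected counts per gene symbol, estimated with RSEM after Bowtie2 alignment to mm10, per the submitters' processing notes; those notes give no versions. The single table holds 23845 symbols for 36 libraries. Values were rounded to integers before testing. In R 4.3.3, edgeR 4.0.16 (quasi-likelihood test, robust, TMM, filterByExpr with minimum count 10 and minimum total 15) was fitted to the 19 libraries of the 8-cell stage, with Benjamini-Hochberg adjustment over 9850 genes and a threshold of 0.05; the change between stages used all 36 libraries. CPM are TMM-scaled. A TMM factor corrects for libraries whose counts are concentrated in a few genes, and it was 0.515 in Ctrl replicate 6, so its CPM are larger than its share of raw counts. DESeq2 1.42.0, another normalization, other filters, thinning and leaving libraries out were alternatives. Library measures were compared by exact permutation. Counting was not stated to use strand. The fit was also run on simulated counts that had the same spread for every gene and no outlying library. That run does not show how the fit behaves with a library like Ctrl replicate 6. Replicate numbers follow accession order and pair nothing.

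The libraries and gene lists were chosen with earlier results of these data known. The named genes are the 10 smallest p-values per direction with at least 10 CPM in a group, the 2 most abundant tested members of each list (values printed for some; 1 is not reported here), and the 5 smallest p-values of the stage difference; further list members are named for an unadjusted p under 0.05. Gene positions come from GENCODE vM21 and promoter windows from RefSeq (GRCm38.p6); windows for Gm5662, Gm2016 and Gm8300 were not used here. For edgeR, the SE of a log2 fold change was its size divided by the square root of the F statistic, and intervals were built from that SE. Intervals and floors cover the spread between pools only.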

Additional observations from a re-analysis of the deposited data

Results flagged for a closer look

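In groups of 6 libraries, the gap between the most extreme library and its nearest neighbour, divided by the group's range, was compared with Dixon's critical value. Of 120 groups of values examined, 13 exceeded it, and 12 of the 13 were Ctrl replicate 6. A rate of 1 in 20 would give 6, but only for independent groups. These groups shared libraries and some genes, and the single genes had been picked for small p. The 13 can therefore not be weighed against that number. For log2 CPM the ratio was 0.694 for Nup62cl, 0.666 for Prr5l and 0.849 for Nat9. For the share of counts it was 0.695 for translation factors, 0.781 for maternal oocyte transcripts, 0.640 for pluripotency genes and 0.837 for compaction, polarity and junction genes. It was 0.792 for DNA methylation genes (a list that shares Dppa3 with the maternal one), 0.729 for histone modification, 0.790 for splicing, 0.727 for lysosome and autophagy and 0.695 for imprinted genes. The remaining value, 0.696, was that of NI replicate 1 for chromatin assembly and remodelling genes.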

How the results depend on the processing

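The count of 0 genes called held under every alternative run except DESeq2, which called 1 gene, Afp, higher in Ctrl. With each Ctrl or NI library left out, 0 to 0 genes were called, and the smallest adjusted p was 0.316 (without NI replicate 6). The number at an unadjusted p under 0.05, 429, was 1323 with no filter (17836 genes tested), 283 at a minimum count of 50 (6364 tested), 242 with the 12 Ctrl and NI libraries alone and 203 (without Ctrl replicate 6) to 636 (without Ctrl replicate 1) with each library left out. It was 148 without Ctrl replicates 3 and 6, and 334 without the 4 libraries highest on the first component, both chosen after seeing the data. Phlda2 reversed, to -0.10, without Ctrl replicates 3 and 6. For the change between stages DESeq2 called 659 genes where edgeR called 0. In each of these cases the cause was not tested. Of 1964 values of 90 single genes under the alternatives, 1902 stayed within their criterion and 60 moved. Of the rest, 1 (Afp under DESeq2) passed the threshold and 1 (Phlda2) reversed. For genes with an unadjusted p under 0.05 in the main edgeR run, the criterion was only a kept sign. The fall of Phlda2 from 2.92 to 0.61 without Ctrl replicate 6 thus counted as within it. For other genes it was a shift under 1 SE. Of 776 list medians, 3 moved by at least the median SE of their members. That SE is one of single genes, so these counts say little about stability. The exact permutation p-values of the 3 library measures stayed above the threshold in all 36 cases. RLE scaling gave a median log2 fold change of -0.03, as TMM did. No paired analysis was possible because the labels carry no replicate number shared between groups. Depth limits genes of low count: the interval lay inside a 4-fold change for 80.6% of all genes tested.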
